A study of Mus musculus with 2 samples.

Results

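The genes described here are those for the constant regions of antibody chains and for the chain that joins antibodies into polymers. Their 10 members were the heavy-chain genes Ighm, Ighd, Ighg1, Ighg2b, Ighg2c, Ighg3 and Igha, the light-chain genes Igkc and Iglc2, and Jchain, out of 32291 genes in the table. They were chosen by their measured levels in these data, in B cells and in cells that do not make them, so all values below are descriptions and none of them is a test. Colitis-associated colon cancers (CACs), tumors that form in chronically inflamed colon, were dissociated, dead cells were depleted, and mRNA of single cells was sequenced from the 3′ end. One library came from Mir34a_F/F mice, whose Mir34a gene is flanked by loxP sites and not deleted. The other came from Mir34a_Mye_KO mice, which carry the same floxed alleles together with LysM-Cre, a recombinase driven from the lysozyme 2 locus in myeloid cells. Each library pooled 6 to 8 CACs from 3 mice. All mice received azoxymethane (AOM), a colon carcinogen, at 10 mg/kg from an age of 6 to 10 weeks. They drank the irritant dextran sodium sulfate (DSS) in 3 periods of 5 days, at 2.5% in the first and second and 2% in the last, and were sacrificed on day 110. There was 1 library per genotype and therefore no replicate, so that genotype and library cannot be told apart. Intervals below are 95% intervals that cover counting error only.

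An antibody is built of heavy and light chains. A naive B cell makes IgM and IgD from the Ighm and Ighd genes at one end of the heavy-chain locus, and can then switch its rearranged variable region to a downstream constant gene, which gives IgG, IgE or IgA. Once it has become a plasma cell it devotes a large part of its mRNA to one heavy and one light chain. In the gut most plasma cells make IgA, which the J chain joins into dimers and which the receptor Pigr carries across the epithelium into the lumen. IgM polymers also hold the J chain, while secreted IgG stays single.

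The ends of the heavy-chain coding sequences show this difference. The last 60 coding bases before and with the stop codon are given for the genes that led the most antibody-producing cells and for Ighm, from the mm10 genome and its GENCODE annotation, all on the minus strand of chromosome 12. Capitals mark the codon for the cysteine next to the last residue, through which IgA and IgM tails are known to bind the J chain. It was found in the Igha and Ighm ends and not in the Ighg1 or Ighg2c ends.
Igha, chr12:113258768-113258827: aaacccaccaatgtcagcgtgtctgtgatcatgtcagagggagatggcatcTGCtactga
Ighm, chr12:113420867-113420926: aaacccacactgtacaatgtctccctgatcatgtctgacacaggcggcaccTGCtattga
Ighg1, chr12:113328976-113329035: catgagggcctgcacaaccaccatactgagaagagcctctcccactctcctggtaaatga
Ighg2c, chr12:113287389-113287448: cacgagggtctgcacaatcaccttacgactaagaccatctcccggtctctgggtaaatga
Over the last 300 coding bases, compared position by position, Igha and Ighm were 50.0% identical. The closest pair among the Ighg genes was Ighg2b and Ighg2c with 76.0%, and Ighg1 and Ighg3 were 74.7% identical.

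The lambda light-chain genes Iglc2 and Iglc3 are much closer to each other, which matters for how their UMIs (unique molecular identifiers, counts of captured mRNA molecules) are divided. The last 90 coding bases of these and of Iglc1, on the minus strand of chromosome 16, are printed with capitals wherever a base differs from Iglc2.
Iglc2, chr16:19198536-19198625: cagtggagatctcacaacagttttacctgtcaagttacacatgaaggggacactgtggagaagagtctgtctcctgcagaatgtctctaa
Iglc3, chr16:19065365-19065454: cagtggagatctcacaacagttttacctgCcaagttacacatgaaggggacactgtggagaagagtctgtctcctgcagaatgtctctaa
Iglc1, chr16:19061752-19061841: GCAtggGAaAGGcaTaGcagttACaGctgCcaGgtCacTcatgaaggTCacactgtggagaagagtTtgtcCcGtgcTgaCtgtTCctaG
Iglc3 differed from Iglc2 at 1 of these positions and Iglc1 at 27. UMIs of Iglc2 and Iglc3 may therefore be split between the genes, and both are given below.

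The Mir34a_F/F library held 20312 cells with a median of 4787 UMIs, and the Mir34a_Mye_KO library 18571 cells with a median of 7716. The authors assigned each cell to 1 of 11 cell types. In macrophages the feature mir34apri, named for the primary Mir34a transcript, had 133 UMIs in the library labelled Mir34a_F/F and 462 in the library labelled Mir34a_Mye_KO, a log2 ratio of 1.03 (0.74 to 1.31). The feature crenlslyz2, named for Cre at the lysozyme 2 locus, had 451 and 172 UMIs (-2.16, -2.42 to -1.91). Lyz2 itself, whose locus carries the recombinase in Mir34a_Mye_KO mice, had 3892 and 1379 UMIs (-2.27, -2.36 to -2.18). The mir34apri direction goes against the labels and that of Lyz2 does not. The crenlslyz2 direction goes against them too, but its ratio was close to that of Lyz2. Whether this feature counts reads of Lyz2 itself was not tested, so it is not taken as a separate reading of the labels. The libraries are named by their labels below. In the cells annotated as B cells, 9 of 13 B cell markers and 8 (Mir34a_F/F) or 9 (Mir34a_Mye_KO) of 10 plasma cell markers had their highest mean among all types. The other 4 B cell markers, Cd74 and MHC class II genes, were highest in dendritic cells. The libraries shared 96 cell barcode sequences. Although the stated filter was under 25% mitochondrial RNA, 2470 cells of the library labelled Mir34a_F/F and 4130 of the other were at 25% or more, of which 11 and 22 were B cells.

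All 10 members together made up 1.52% of the UMIs of the library labelled Mir34a_F/F and 4.67% of those of the library labelled Mir34a_Mye_KO. The annotated B cells, 943 and 926 cells, held 86.0% and 90% of these member UMIs. Levels are given as the mean over cells of UMIs per 10000 UMIs of a cell. In B cells the 10 members summed to 1326 in the library labelled Mir34a_F/F and 2689 in the other, a log2 ratio of 1.02. The medians of these cells were 67.3 and 2963, so the typical annotated B cell differed far more than the mean. B cells were also unequal in depth, with medians of 3664 and 20852 UMIs per cell.

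Igha, the heavy chain of IgA, reached a mean of 399 per 10000 in B cells of the library labelled Mir34a_F/F and 794 in the other (log2 ratio 0.99). Igkc, the kappa light chain, had the highest mean of the 10, with 777 and 1495 (0.94). Jchain had 120 and 285 (1.25). These 3 genes rested on many cells, since no single cell held more than 1.22% of the UMIs of any of them. Ighm, the heavy chain of IgM, was at 4.66 and 5.70 (0.29, interval 0.21 to 0.37). That order rested on 1 cell, which held 3740 UMIs or 51.2% of all Ighm UMIs of B cells in the library labelled Mir34a_Mye_KO. Without the top cell of each library the Ighm log2 ratio was -0.16. Ighd, the heavy chain of IgD, was at 1.17 and 1.26 (0.11, -0.07 to 0.29), an interval that includes 0.

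The IgG genes were lower than Igha by more than an order of magnitude in both libraries. Ighg1 had means of 6.72 and 11.3 in B cells (log2 ratio 0.75), and Ighg2c of 8.03 and 23.8 (1.57). Ighg2b was at 2.18 and 9.14 (2.07), where 1 cell held 27.1% of its UMIs in the library labelled Mir34a_F/F and 1 cell 46.2% in the other. The latter cell, with 84477 UMIs, was the deepest of its library. Without these cells the Ighg2b log2 ratio was 2.24. Ighg3 was rare, with 25 and 265 UMIs in all B cells. Its means were 0.0175 and 0.0873 per 10000, against 0.00154 and 0.00202 in the other cell types. Iglc2, a lambda light chain, was at 7.29 and 64.0 (log2 ratio 3.13, and 3.49 without the top cells). From UMIs summed over cells the log2 ratio was 2.43 for Iglc2 and 3.36 for Ighg2c, so which of them had the wider gap depends on the scaling.

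**Figure D1:**
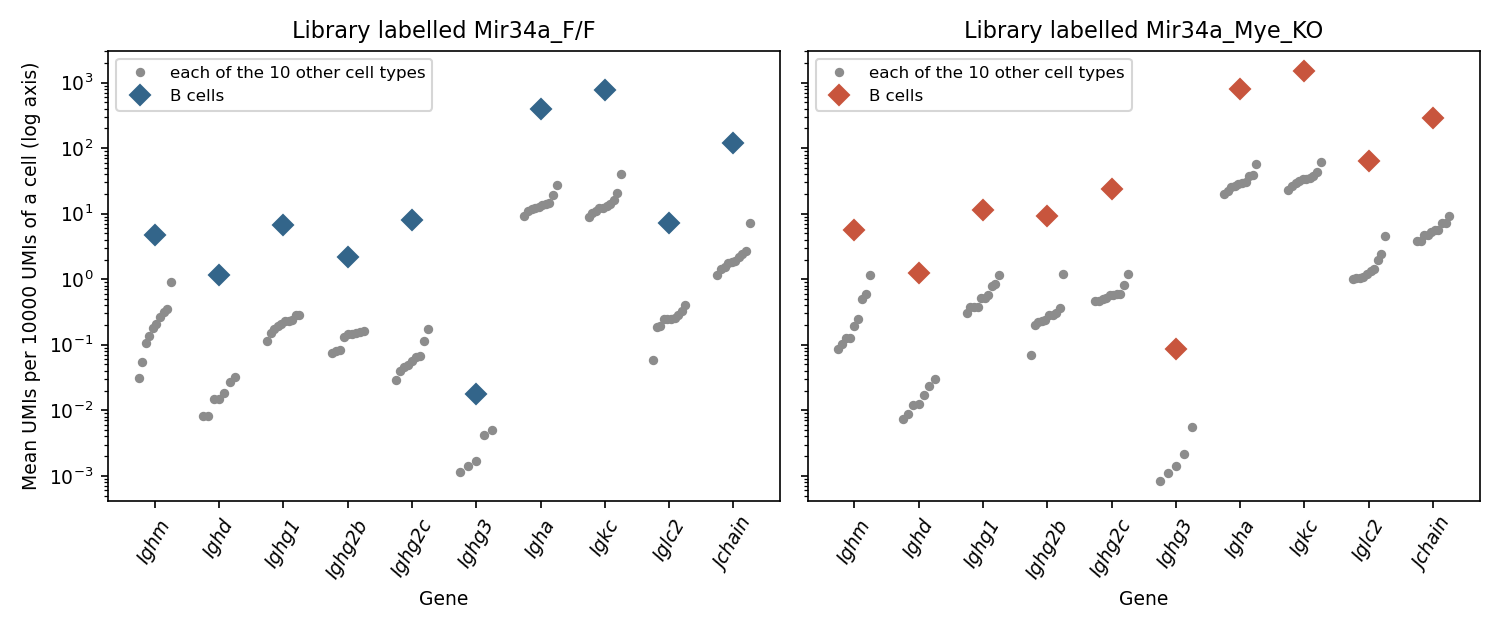
Mean UMIs per 10000 (log axis) of each of the 10 genes, with diamonds for the annotated B cells, gray points for each of the 10 other cell types, and 1 panel per library. Types with a mean of 0 are not drawn. Each diamond lies above all gray points of its gene, and Igkc, Igha and Jchain have the highest gray points.

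In B cells 9 of the 10 members had a mean of at least 0.5 per 10000 in a library, and Ighg3 did not. Of these 9, 4 were higher by 2 times or more in the library labelled Mir34a_Mye_KO and 0 were lower. Among all 3160 genes with such a mean, 1.84% were higher by that much and 4.87% lower. The median log2 ratio was 0.99 over the 9 members and -0.31 over all these genes. In epithelial cells 6 members had such a mean, and 6 of 6 were higher by 2 times or more against 0.387% of 3356 genes, while 0 were lower against 0.328%. The medians there were 2.03 for the members and -0.23 for all genes. In epithelial cells Ighg1, Ighg2c and Iglc2 reached that mean only in the library labelled Mir34a_Mye_KO, at 0.797, 0.809 and 1.97. In the other library they were at 0.193, 0.0641 and 0.254, so the filter left only the higher direction for them. Since the members were chosen by these levels, nothing is read from the shares.

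Isotype use was described first by UMIs. Of the heavy-chain constant UMIs of B cells, Ighe included, Igha held 97.3% in the library labelled Mir34a_F/F and 93.8% in the other. As a mean over cells with at least 10 such UMIs the shares were 79.8% and 83.1%, so the order of the libraries turned. The 4 Ighg genes together held 2.34% and 5.84%, Ighm 0.276% and 0.293%, and Ighd 0.0625% and 0.0345%. The Ighg2c share was 0.393% and 2.90%. Ighe, the heavy chain of IgE, had 208 and 33 UMIs in B cells. Of the 208, 88.9% were in 1 cell, which held 185 Ighe and 2597 Igha UMIs.

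Each B cell was then given the class of the heavy-chain gene that led it. The planned minimum of 10 heavy-chain UMIs classed 439 and 859 cells, of which Igha led 86.1% (82.5 to 89.2) and 93.6% (91.7 to 95.1). Ighm led 42 (9.57%, 6.98 to 12.7) and 28 (3.26%, 2.18 to 4.68) of them, against 4 and 1 of the classed T cells. For Igha this minimum does not separate B cells from other cells, because 9.20% of T cells in the library labelled Mir34a_F/F and 94.0% in the other reached it too. A minimum of 100 UMIs, chosen after seeing the data, was reached by 0.0648% and 0.189% of T cells and by 277 and 562 B cells. At this minimum Igha led 265 cells (95.7%, 92.6 to 97.7) and 536 cells (95.4%, 93.3 to 97.0), and the intervals of the libraries overlap widely. IgG genes led 12 and 25 cells, with Ighg1 in 6 and 8, Ighg2b in 1 and 3, and Ighg2c in 5 and 14. Ighm led 0 and 1 cell, so its cells at the lower minimum held under 100 heavy-chain UMIs with 1 exception, and Ighd, Ighg3 and Ighe led 0 in both, which with 0 of 277 allows a share of up to 1.32%.

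Most B cells with at least 100 heavy-chain UMIs used 1 heavy-chain gene almost alone. In the median cell at the minimum of 100 UMIs the leading gene held nearly all heavy-chain UMIs, 99.9% in the library labelled Mir34a_Mye_KO and still more in the other. A second heavy-chain gene with at least 100 UMIs was found in 3 and 12 cells. The commonest pair was Igha followed by Ighg2b, in 2 and 8 cells. In the Igha-led cells, 26.4% and 45.5% held an Ighg2b UMI, which summed to 0.215 and 0.245 Ighg2b UMIs per 100 Igha UMIs. The same ratio was 0.0167 and 0.0198 for Ighg1 and 0.0115 and 0.0867 for Ighg2c. Whether such pairs are 2 cells in 1 droplet was not tested.

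The J chain was lower per heavy chain in IgG-led than in Igha-led cells of both libraries. In Igha-led cells the median was 0.296 Jchain UMIs per heavy-chain UMI in the library labelled Mir34a_F/F (quartiles 0.230 and 0.374) and 0.344 in the other (0.271 and 0.424). In IgG-led cells it was 0.138 (0.0355 and 0.201, n = 12 cells) and 0.114 (0.0758 and 0.206, n = 25 cells). The Ighg1-led cells had medians of 0.176 and 0.192 and the Ighg2c-led cells 0.0237 and 0.0783. The Jchain UMIs of IgG-led cells ran from 2 in an Ighg2c-led cell up to 1952 in an Ighg1-led cell. A few such UMIs cannot be told from background, since 44.9% and 93.6% of T cells held one too. The single Ighm-led cell had 1464 Jchain UMIs for 3740 Ighm UMIs, with 6990 Igkc UMIs in a cell of 25937 UMIs.

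Genes of plasma cell state were compared between Igha-led and IgG-led cells that were also plasma-marker cells, those with over 2 times as many UMIs of plasma cell as of B cell markers. Values are UMIs summed over cells, per 10000 summed UMIs of genes that are no immunoglobulin genes, so deep cells weigh more. The IgG side rests on 4 cells in the library labelled Mir34a_F/F and 14 in the other. Ccr10, a receptor that brings IgA plasma cells to the gut lining, had 291 UMIs in Igha-led and 0 in IgG-led cells of the library labelled Mir34a_F/F. In the other library it had 2062 and 25, a log2 ratio of Igha-led over IgG-led of 2.04 (1.48 to 2.67). Itgb7, a subunit of a gut-homing integrin, had a log2 ratio of 2.02 (1.03 to 3.24) in the library labelled Mir34a_Mye_KO. Its partner subunit Itga4 had -0.15 (-0.33 to 0.04) there and -1.19 (-1.69 to -0.64) in the library labelled Mir34a_F/F, and Ccr9, another gut-homing receptor, had 0.72 (-0.53 to 2.36) in the library labelled Mir34a_Mye_KO. Tnfrsf17, a survival receptor of plasma cells, had 3.47 (2.43 to 4.79) there. For a gene with 0 UMIs in the 4 IgG-led cells of the library labelled Mir34a_F/F, the interval reached up to 1.35 per 10000. The Igha-led levels there were 1.70 for Ccr10, 2.09 for Tnfrsf17 and 0.764 for Itgb7, and the last lies within that interval. Cxcr3, a chemokine receptor of inflamed tissue, pointed the other way with -3.55 (-5.01 to -1.96) in the library labelled Mir34a_Mye_KO, on 12 and 7 UMIs. Cxcr4, another chemokine receptor, did so in both libraries, with -2.26 (-3.44 to -0.77) and -1.11 (-1.80 to -0.35). The cell division genes Mki67 and Top2a had -1.33 (-1.67 to -0.98) and -1.43 (-1.80 to -1.04) in the library labelled Mir34a_Mye_KO. Their intervals in the other library included 0. The IgG-led UMIs of the library labelled Mir34a_Mye_KO lay in 9 cells for Mki67 and 6 for Top2a. By cells with a UMI, Mki67 was seen there in 64.3% of IgG-led and 47.0% of Igha-led cells. Top2a was seen in 42.9% and 44.9%, so its gap was not one of cell shares. Txndc5, a folding enzyme of the endoplasmic reticulum, was higher in Igha-led cells of both libraries (1.53 and 1.49). Creld2, a chaperone of the stressed endoplasmic reticulum, was lower in both (-1.74 and -0.95). Ly6c2, a surface antigen of some plasma cells, had opposite signs, 1.50 and -1.08. Tnfrsf17, Txndc5 and Creld2 are among the plasma cell markers that chose these cells, so their levels helped to decide which cells entered.

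Light-chain use was mostly kappa. Igkc held 97.4% of light-chain constant UMIs in B cells of the library labelled Mir34a_F/F and 95.1% in the other. Of the B cells with at least 100 light-chain UMIs, 281 and 561 cells, lambda genes led 6 (2.14%, 0.788 to 4.59) and 25 (4.46%, 2.90 to 6.51). The intervals overlap, and the libraries differed more in which lambda gene led. In the library labelled Mir34a_F/F Iglc1 led 1 cell, Iglc2 led 2 and Iglc3 led 3. In the library labelled Mir34a_Mye_KO Iglc2 led all 25. All of the 6 and all of the 25 were Igha-led.

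Iglc3 went against Iglc2 between the libraries. Its mean in B cells was 7.34 in the library labelled Mir34a_F/F and 4.89 in the other (log2 ratio -0.59). That order rested on the top cells, which held 64.4% and 19.3% of its UMIs, and without them the ratio was 0.15. Iglc1 was at 4.62 and 8.00, where 1 cell held 51.5% of its UMIs in the library labelled Mir34a_F/F. Without the top cells Iglc1 was at 2.81 and 6.90, and from summed UMIs its log2 ratio was -0.11. Within Iglc2-led cells there were 2.15 and 4.88 Iglc3 UMIs per 100 Iglc2 UMIs. The Iglc3-led cells of the library labelled Mir34a_F/F held 34 Iglc2 and 8777 Iglc3 UMIs. How many UMIs of the lesser gene are misassigned reads was not tested, and the genes were compared over their last 90 coding bases only.

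The annotated B cells are a mixture, and the share of its parts differed between the libraries. Each B cell was placed by its UMIs of the B cell list and the plasma cell list, neither of which holds a member. Cells with over 2 times as many plasma-list as B-list UMIs are called plasma-marker cells, the reverse B-marker cells, and the rest lie between. These are ranges of a score and not cell types. Of the B cells, 70.1% (661 cells) were B-marker and 21.4% (202 cells, 18.8 to 24.2) plasma-marker cells in the library labelled Mir34a_F/F. In the other, 38.3% (355 cells) were B-marker and 42.2% (391 cells, 39.0 to 45.5) plasma-marker cells. At a margin of 4 times the plasma-marker shares were 9.12% and 11.2%, so the size of the gap depends on the margin. Just inside the plasma-marker limit, up to 2.5 times, lay 23 and 96 cells, and just outside, down to 1.6 times, 20 and 81.

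In plasma-marker cells and the cells between, the summed levels of the libraries lay close together, which was not so in B-marker cells. In plasma-marker cells the members held 44.0% of the UMIs in the library labelled Mir34a_F/F and 45.5% in the other, with a log2 ratio of 0.04 for the 10 genes together. Igha was at 1302 and 1311 per 10000 (0.01), Igkc at 2489 and 2418 (-0.04) and Jchain at 420 and 479 (0.19). Iglc2 had means of 24.9 and 122 (2.29) but medians of 6.58 and 8.38, so a part of the cells carried the gap. In the cells between, the members held 44.7% and 46.1%. In B-marker cells they held 2.27% and 2.17% of all UMIs, but the mean per cell was 116 and 173 per 10000 (0.58). There Igha was at 29.0 and 51.1 (0.82), Igkc at 68.8 and 93.3 (0.44) and Jchain at 5.24 and 10.7 (1.03). A few cells carried these means, as 12 and 9 B-marker cells had over 10% member UMIs, and the medians were 12.3 and 22.7 for Igha, 26.4 and 45.0 for Igkc and 0 and 3.98 for Jchain.

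Ighm and Ighd had the opposite order from the other members. Ighm was at 6.45 and 9.90 in B-marker cells against 0.357 and 4.29 in plasma-marker cells. In the library labelled Mir34a_Mye_KO 1 cell held 83.4% of the Ighm UMIs of plasma-marker cells, and the mean without it was 0.604. Ighd was at 1.66 and 3.28 in B-marker cells and at 0.00249 and 0.00297 in plasma-marker cells, where it had 1 and 5 UMIs. Both genes were higher in B-marker cells of the library labelled Mir34a_Mye_KO (0.62, 0.53 to 0.71 for Ighm and 0.98, 0.80 to 1.16 for Ighd). The ratio of the median depths of these cells, 3007 and 7155 UMIs, goes the same way, and its part was not tested.

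**Figure D2:**
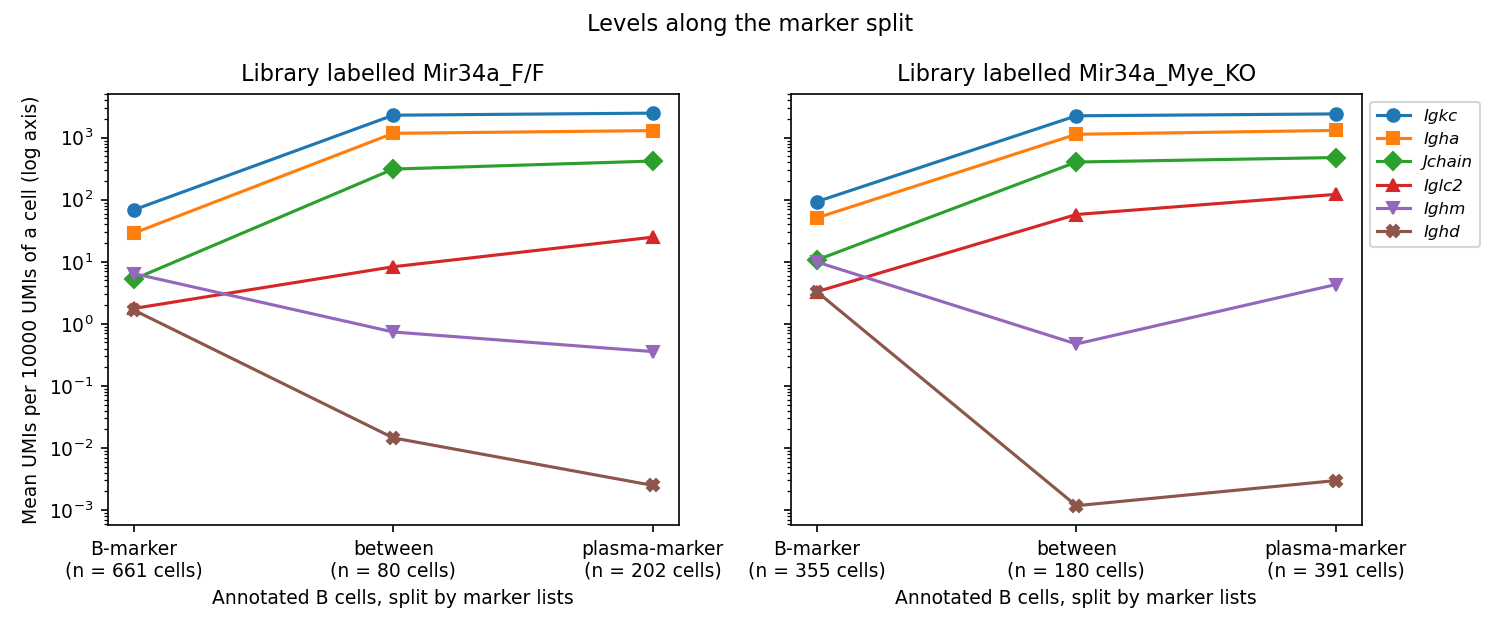
Mean UMIs per 10000 (log axis) of 6 genes in the annotated B cells split by marker lists, with 1 panel per library and 1 line per gene. Igkc, Igha, Jchain and Iglc2 rise from B-marker to plasma-marker cells and Ighd falls; the Ighm point of plasma-marker cells in the right panel, 4.29, is 0.604 without 1 cell.

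The share of B-marker cells with a UMI of a gene was set beside that of T cells, which should lack all of them. The T cells had median depths of 3548 and 8043 UMIs, close to those of the B-marker cells. Ighm was seen in 66.9% and 81.4% of B-marker cells and in 11.8% and 23.3% of T cells. Ighd was seen in 33.7% and 67.6% against 0.939% and 1.32%, and both genes together in 29.2% and 66.8% against 0.551% and 1.06%. Igha, by contrast, was seen in 97.3% and 100% of B-marker cells and in 97.5% and nearly all of the T cells. A share near 100% in both types cannot show a difference, and the Igha means were 29.0 and 51.1 per 10000 in B-marker cells against 14.2 and 26.1 in T cells. The medians were close, 12.3 and 22.7 against 11.3 and 21.4, so the typical B-marker cell was at the T cell level of Igha. Ighg1 was seen in 10.1% (7.94 to 12.7) and 31.3% (26.5 to 36.4) of B-marker cells against 6.90% and 30.4% of T cells, and Ighg2b in 7.56% (5.67 to 9.85) and 18.6% (14.7 to 23.0) against 4.53% and 16.0%. The IgG shares of the library labelled Mir34a_Mye_KO were thus at the T cell level, and Ighm and Ighd stood far above it in both.

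Outside B cells the members were found in nearly every cell. Only 33 of 19369 cells of the library labelled Mir34a_F/F and 19 of 17645 of the other held no member UMI. The 10 genes summed to a mean of 29.0 per 10000 in the library labelled Mir34a_F/F and 82.3 in the other, a log2 ratio of 1.51 (1.50 to 1.51), and to medians of 20.9 and 55.7. Igha was at 13.2 and 33.8, Igkc at 13.1 and 38.6 and Jchain at 1.80 and 6.32. Over the 10 other types Ighm ran from 0.0306 to 0.901 in the library labelled Mir34a_F/F and from 0 to 1.18 in the other, and Ighd from 0 to 0.0322 and from 0 to 0.0296. Ighg1 ran from 0.113 to 0.283 and from 0.301 to 1.16, Ighg2b from 0 to 0.163 and from 0.0692 to 1.19, and Ighg3 from 0 to 0.00506 and from 0 to 0.00557. Iglc2 ran from 0.0587 to 0.410 and from 0.997 to 4.50. Cells in which the members took over 10% of the UMIs were few, 9 and 26.

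All 10 other cell types had a higher summed level in the library labelled Mir34a_Mye_KO, with log2 ratios from 0.20 to 1.68. Epithelial cells had 29.2 and 93.6 (1.68, 1.67 to 1.69), macrophages 24.0 and 74.7 (1.64) and T cells 31.3 and 62.9 (1.0). Neutrophils had 26.9 and 70.4 (1.39), dendritic cells 20.7 and 50.5 (1.28) and mast cells 27.5 and 65.0 (1.24). Fibroblasts had 33.7 and 70.3 (1.06), basophils 24.9 and 53.9 (1.12) and erythroid cells 43.7 and 135 (1.63). Endothelial cells had 75 and 86.4 (0.20), where 1 cell held 71.3% of the UMIs in the library labelled Mir34a_F/F. Without the top cells they had 35.6 and 86.6, and the ratio was 1.28. From UMIs summed over all endothelial cells the ratio was -1.90. In the library labelled Mir34a_F/F 5 cells held 91.9% of these UMIs, and without the top cell of each library 3633 and 3773 UMIs remained. The direction in this type therefore depends on how much a few cells weigh in the scaling.

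Single members outside B cells are set beside the B cells of their own library. Igha was higher in 10 of 10 other types in the library labelled Mir34a_Mye_KO by means over cells. From summed UMIs the Igha log2 ratio in endothelial cells was -1.51. Igkc and Jchain were higher in 9 of 10 by intervals above 0, and in endothelial cells had log2 ratios of -0.07 (-0.14 to 0.01) and 0.02 (-0.16 to 0.20). Iglc2 was higher in 9 of the 9 types with enough UMIs, by log2 ratios of 2.09 to 3.45, and Ighg2c in 6 of 6, by 1.53 to 3.88. The lowest of these, in T cells, rests on 1 cell with 86.5% of the Ighg2c UMIs of T cells in the library labelled Mir34a_F/F, and was 2.87 without the top cells. Iglc3, which differed from Iglc2 at 1 of the last 90 coding bases, was higher in 0 of 7 types, with 5 intervals wholly below 0. The ratio of Iglc3 to Iglc2 UMIs was 0.949 in B cells and 0.733 in the other types of the library labelled Mir34a_F/F, and 0.0786 and 0.0698 in the library labelled Mir34a_Mye_KO. The value of 0.949 rests on top cells with 64.4% of the Iglc3 and 39.2% of the Iglc2 UMIs, and without them 3997 Iglc3 and 7191 Iglc2 UMIs remained, a ratio below that of the other types. The 4 Ighg genes had 0.0240 UMIs per Igha UMI in B cells and 0.0280 in the other types of the library labelled Mir34a_F/F, and 0.0622 and 0.0476 in the other library.

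The light chain and the J chain were lower, relative to Igha, outside B cells. There were 2.01 and 1.94 Igkc UMIs per Igha UMI in B cells and 1.05 and 1.14 in the other types. Jchain had 0.320 and 0.374 per Igha UMI in B cells and 0.149 and 0.180 elsewhere. Without the 10 cells with the most member UMIs of each type, the Igkc ratio ran from 0.810 to 1.08 over the types of the library labelled Mir34a_F/F and from 1.01 to 1.13 over those of the other. The Jchain ratio then ran from 0.118 to 0.198 and from 0.136 to 0.190. With these cells left out, both ratios lay below the B cell value in every other type of both libraries. The ratio of Igkc to Jchain was closer, 6.29 and 5.17 in B cells and 7.04 and 6.31 in the other types.

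**Figure D3:**
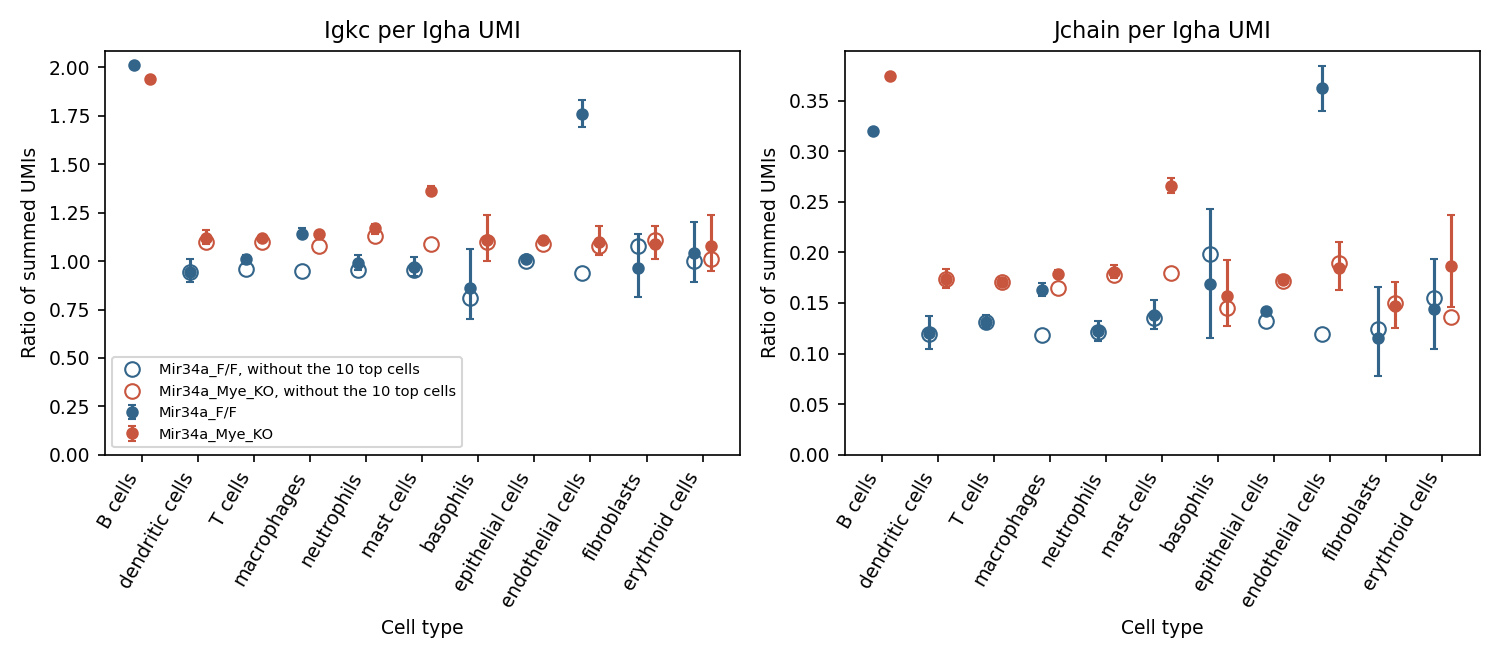
Summed Igkc UMIs (left) and Jchain UMIs (right) per summed Igha UMI, in B cells and in each other cell type, by library; filled points carry 95% counting intervals and open points leave out the 10 cells with the most member UMIs. Open points lie below the B cell value in every type, at 0.810 to 1.13 for Igkc.

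Ighm and Ighd did not keep 1 ratio to Igha across types. The Ighm UMIs per Igha UMI were 0.00476 and 0.00275 in epithelial cells, 0.0368 and 0.0274 in T cells, 0.0284 and 0.0311 in macrophages and 0.105 and 0.0890 in dendritic cells. In B cells, where Igha dominated, the ratio was 0.00283 and 0.00312. Ighm in dendritic cells was at 0.901 and 1.18 per 10000. Ighd held 0.106% (0.0746 to 0.147) and 0.0692% (0.0551 to 0.0859) of the member UMIs of T cells, and 0.0270% (0.0203 to 0.0354) and 0.0108% (0.00802 to 0.0142) of those of epithelial cells.

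Within the dendritic cells Ighm went with Siglech, a surface lectin of plasmacytoid dendritic cells. The limit on Siglech was set after the values were seen. Cells with at least 2 Siglech UMIs, 35 and 57 cells, had Ighm means of 5.96 and 5.84 per 10000, and cells with 0 Siglech UMIs, 310 and 368 cells, of 0.336 and 0.471. The folds were 17.7 and 12.4. Iglc3 had 3.76 and 3.68 against 0.182 and 0.0572, folds of 20.6 and 64.3. Igkc and Igha showed no such gap, with Igkc at 10.4 and 19.4 against 8.59 and 23.6 and Igha at 10.4 and 17.2 against 9.25 and 20.7. Jchain was at 1.32 and 2.73 against 1.14 and 4.02. Iglc2 was at 0.953 and 1.34 against 0.174 and 1.03, where 19 of the 22 UMIs behind 0.953 were in 1 cell. Mzb1, a chaperone of antibody-making cells, was at 0.849 and 1.31 against 0.0532 and 0.122, and the plasmacytoid markers Ccr9, Bst2, Tcf4 and Klk1 were also high there. Markers of classical dendritic cells were mixed. Flt3 was at 1.63 and 2.60 against 1.17 and 1.21, and Clec9a at 1.11 and 1.22 against 0.791 and 0.795. Cd209a was at 1.39 and 1.01 against 0.654 and 1.03. Zbtb46 was lower, at 0.0390 and 0.0953 against 0.693 and 0.889, as was Xcr1, at 0.0271 and 0.0195 against 0.526 and 0.613. The defining B cell genes had few UMIs in the Siglech cells, with 1 and 0 UMIs of Ms4a1, 2 and 1 of Cd79a and 4 and 5 of Cd79b. In the library labelled Mir34a_F/F Cd79b was at 0.159 against 0.0321, a log2 ratio of 2.31 (0.13 to 4.21), and in the other at 0.0709 against 0.0375 (0.92, -0.83 to 2.34).

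**Figure D4:**
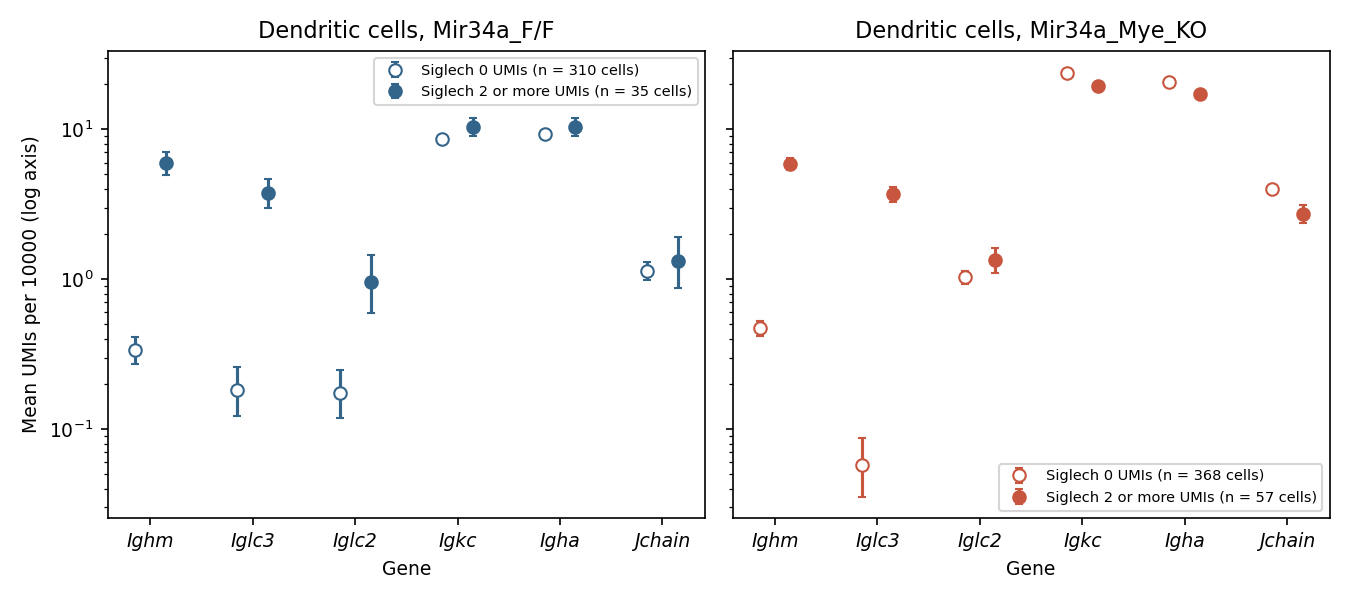
Mean UMIs per 10000 (log axis) of 6 genes in dendritic cells with 0 Siglech UMIs (open) and with 2 or more (filled), with 95% counting intervals and 1 panel per library. Ighm and Iglc3 are higher in the filled points of both panels, at about the same level in each, while Igkc, Igha and Jchain lie closer together.

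UMIs of the members rose less than in proportion to the depth of a cell. The epithelial cells, T cells and macrophages were each divided into 5 equal groups by their UMIs. In epithelial cells of the library labelled Mir34a_F/F the median number of member UMIs was 7 in the shallowest and 21 in the deepest of these groups, 3.00 times as many over a 12.8-fold range of median depth. In the other library it was 29 and 61, or 2.10 times over a 14.5-fold range. The median per 10000 thus fell from 45.1 to 10.2 and from 204 to 29.0 between the same groups. T cells had 6 and 14 member UMIs in the library labelled Mir34a_F/F and 31 and 56 in the other, over 5.50-fold and 5.65-fold ranges. In the shallowest group the medians of the 3 types were within 6 to 7 UMIs in the library labelled Mir34a_F/F and within 29 to 31 in the other. A level per 10000 outside B cells therefore depends on the depth of the cells, and types of unlike depth are not ranked by it.

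**Figure D5:**
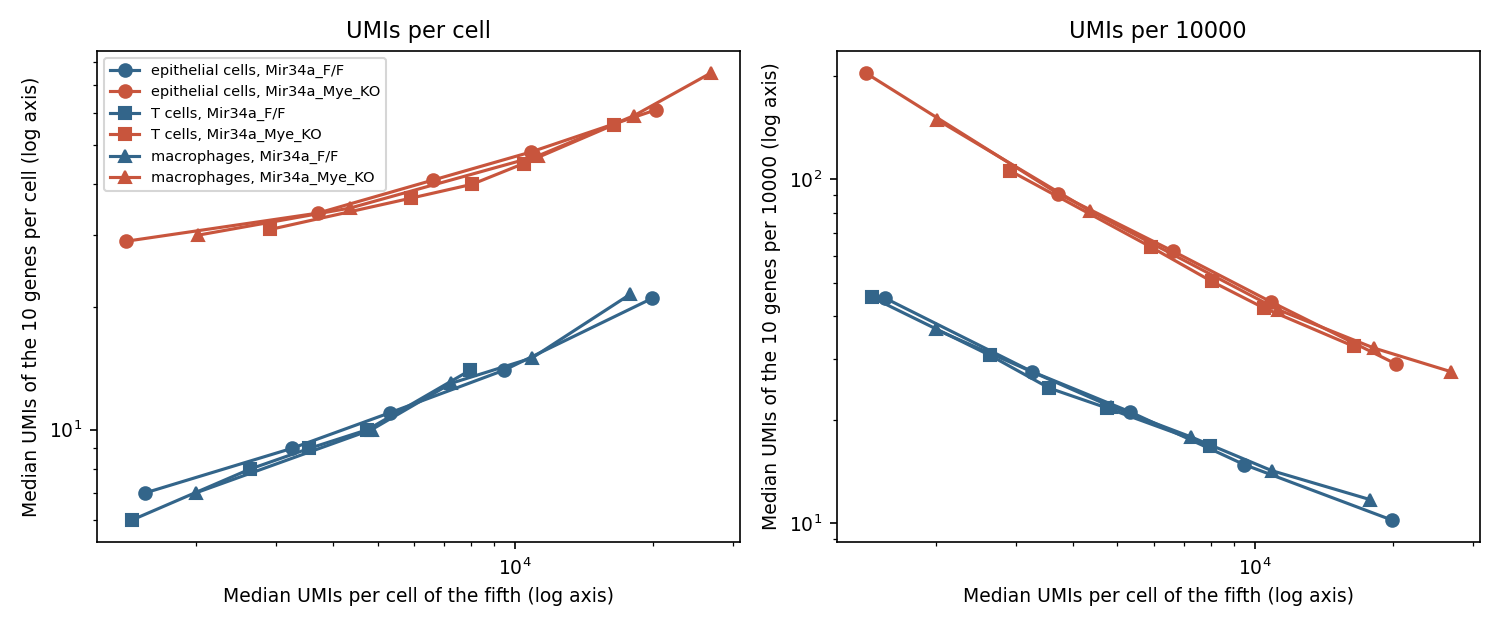
Median UMIs of the 10 genes per cell (left) and per 10000 UMIs (right) against the median depth of 5 equal groups of epithelial cells, T cells and macrophages, both axes logarithmic, with 1 color per library. The types of a library run close together, the library labelled Mir34a_Mye_KO lies above the other at equal depth, and the values per 10000 fall with depth.

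Other genes of antibody production, of its receptors and of its transport were taken from a list of 28. Of these, 16 had their highest mean in B cells in both libraries, among them Cd79a and Cd79b, the signaling chains of the B cell receptor. Of the 26 with enough UMIs for a ratio in B cells, 13 were higher and 5 lower in the library labelled Mir34a_Mye_KO by intervals that exclude 0. By the same rule 7.97% of 15533 genes were higher and 45.4% lower. Genes of the secretory path were among those higher, with Mzb1 at 4.73 and 11.1 (log2 ratio 1.23) and Txndc5 at 2.21 and 6.18 (1.49). So was Xbp1, the factor that builds the secretory apparatus, at 3.47 and 6.87 (0.98). Among surface genes of B cells, Cr2, a complement receptor, was at 0.374 and 0.540 (0.53, 0.24 to 0.83) and Ms4a1 at 1.35 and 1.29 (-0.07, -0.23 to 0.09). Cd79a had 4.65 and 4.45 (-0.06). The share of plasma-marker cells was also larger in the library labelled Mir34a_Mye_KO, and its part in these values was not tested. Pigr, the epithelial receptor that exports polymeric IgA, was highest in epithelial cells at 9.19 and 9.75. The IgG receptors Fcgr1, Fcgr2b, Fcgr3 and Fcgr4 were highest in macrophages of both libraries, and Fcer1a, a chain of the IgE receptor, in mast cells at 6.95 and 8.45.

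Likeness to the members was measured as Pearson's r of log2 mean levels over the 22 groups of cell type and library, among 14157 genes that are no immunoglobulin genes. The groups share libraries and depth, and r is given as a description. Igha was most like Derl3 (0.900) and Mzb1 (0.895), both of the endoplasmic reticulum of plasma cells, and the unnamed Gm34215 (0.892). Igkc and Jchain had the same 3 genes in another order. The 4 Ighg genes were most like Mzb1 (0.916), Derl3 (0.892) and Ccr10 (0.855). Ighd was most like 2010309G21Rik (0.943), Fcer2a (0.938), a low-affinity IgE receptor of naive B cells, and Fcmr (0.930), a receptor of IgM. Ighm was most like Hvcn1 (0.879), a proton channel, H2-Eb2 (0.865) and Slc9a7 (0.856). Among the members, Igha and Igkc had an r of 0.997 and Igha and Jchain of 0.992, whereas Ighm and Ighg2b had 0.366.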

How the data were processed

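Single-cell mRNA of colitis-associated tumors was measured in 2 libraries, 1 per genotype, with the Chromium 3′ kit. Reads were processed with Cell Ranger 7.2.0 and mm10 per the submitters' processing notes. The authors filtered cells by detected genes and mitochondrial RNA, removed doublets with Scrublet, and normalized each cell with Seurat's LogNormalize, so the deposited values are the natural log of 1 plus UMIs per 10000. Cell types were taken from the deposited annotation. UMIs were recovered by undoing the log and dividing by the smallest value of each cell. They came out whole within 1.5e-10, and every cell summed to 10000 before this step. No doublets were called again. Sequences were taken from mm10 by gene symbol.

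Members, gene lists and comparisons were chosen with earlier results of these data known. Levels are means over cells of UMIs per 10000. Ratios are of these means unless stated, with intervals from the summed UMIs, and shares carry exact binomial intervals. Summed UMIs gave the ratios of mir34apri, crenlslyz2 and Lyz2 and those of Igha-led over IgG-led cells. They also gave the folds of cells chosen for Ighm UMIs. No ratio was given under 4 UMIs in either library. Some listed genes are not reported here. Text names the 10 members, by single type or by their range over types, Iglc1, Iglc3 and Ighe where a value turns on them, the 3 genes most like a member, and genes of 2 lists (28 genes of antibody production and transport, 16 of plasma cell state with the plasma markers). Likeness used a pseudocount of 0.01 and genes with a mean of at least 0.1. Alternatives were mean or summed UMIs, UMIs per cell, a pseudocount of 1, a limit of 25% mitochondrial UMIs, thinning to 1000 UMIs, other class minimums, other marker margins and cells left out. The thinning left out 12 and 4 shallower B cells and 828 and 177 other cells (Mir34a_F/F, then Mir34a_Mye_KO). The step that recovers UMIs and the ratios was tested on simulated data. There each gene had 1 rate in all cells of a library, and a count of 1 was always present. Genes carried by a few cells were not simulated, so the test does not cover them. Tools were Python 3.11.15, NumPy 2.4.6, SciPy 1.17.1, pandas 2.3.3 and matplotlib 3.10.9.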

Additional observations from a re-analysis of the deposited data

Results flagged for a closer look

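The libraries differed in opposite directions in the parts of the B cells for 3 genes, and none of these differences between parts was tested. Ighg2b had a log2 ratio, library labelled Mir34a_Mye_KO over library labelled Mir34a_F/F, of -1.42 in B-marker cells and 0.99 in plasma-marker cells. A single cell held 82.2% of the Ighg2b UMIs of B-marker cells in the library labelled Mir34a_F/F, and another 80.2% of those of plasma-marker cells in the other library. Without the top cells the ratios were 0.25 and -0.23, so both directions turned. Ighg2c had -1.16 and 0.95. Its top cells in the library labelled Mir34a_F/F held 70.5% and 74.4%, and without the top cells the ratios were -0.36 and 2.17. Igkc had 0.44 in B-marker cells and -0.04 in plasma-marker cells, and 0.45 and -0.04 without the top cells.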

How the results depend on the processing

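Of 50 values recomputed under an alternative, 17 lay within the counting interval of the main value, and 33 moved beyond it. The log2 ratios of the 10 genes together in B cells and in the 10 other cell types stayed above 0 under each. Values of single genes or cell types turned. Without the top cells, the log2 ratio in B cells went from 0.29 to -0.16 for Ighm and from -0.59 to 0.15 for Iglc3. From summed UMIs it went from 0.11 to -0.38 for Ighd and from 0.79 to -0.11 for Iglc1, and in endothelial cells from 0.20 to -1.90 for the 10 genes. No paired analysis was possible because each genotype had 1 library. For the share of Igha among heavy-chain UMIs, the mean over cells was 79.8% and 83.1% (Mir34a_F/F, then Mir34a_Mye_KO), which turned the order of the libraries, thinning to 1000 UMIs gave 94.6% and 94.0%, and cells under 25% mitochondrial UMIs gave 93.9% in the latter. For the kappa share, the mean over cells was 93.0% and 92.8%, and thinning gave 97.6% in the former. The share of classed cells led by Igha was 95.3% in the library labelled Mir34a_F/F with at least 30 heavy-chain UMIs, 94.3% and 96.2% with a leading gene of at least 80%, 95.5% and 95.5% after thinning, and 95.7% and 95.4% with at least 100 UMIs, a minimum chosen after seeing the data. The plasma-marker share was 31.2% and 62.7% without Cd74 and the MHC class II genes and 9.12% and 11.2% with a margin of 4 times, so its difference between the libraries was much smaller at the stricter margin.

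The log2 ratio of the 10 genes in B cells was 0.46 from summed UMIs, 2.10 from UMIs per cell, 1.04 under the mitochondrial limit and 1.01 after thinning. Within plasma-marker cells it was 0.04 and within B-marker cells 0.58, both added after seeing the data. In the 10 other cell types it was 1.24 from summed UMIs, 1.47 with a pseudocount of 1, 1.67 from UMIs per cell, 1.6 under the mitochondrial limit and 1.58 after thinning. It was 1.55 without cells holding a UMI of any of a few B cell and plasma cell genes, among them Cd79a, Ms4a1 and Mzb1, 1.25 without epithelial cells and 1.18 with equal weight for each type. The cause of these shifts was not tested. Ighd, Ighg3 and Ighe had few UMIs, and the values of several members rested on 1 cell.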

Other observations

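Ighm outside B and dendritic cells was held by a part of the T cells and macrophages. Cells with at least 2 Ighm UMIs, a limit set after seeing the data, numbered 103 and 276 among T cells (Mir34a_F/F, then Mir34a_Mye_KO). They were deeper than the T cells without Ighm, with medians of 6640 and 11984 UMIs against 3385 and 7544. Among genes at 0.3 or more per 10000 in these cells, immunoglobulin genes left out, Gzmc, a granzyme of cytotoxic lymphocytes, ranked first by the lower fold of the libraries, at 7.58 and 4.23 summed UMIs per 10000 against 0.254 and 0.127. Cd7 and Xcl1, genes of innate-like and cytotoxic lymphocytes, were at 3.60 and 3.98 against 0.578 and 0.369, and at 7.03 and 4.67 against 0.847 and 0.848. The B cell genes Bank1 (1.04 and 1.64 against 0.0812 and 0.0598), Ebf1 (2.41 and 1.63 against 0.199 and 0.0775) and Cd79a (0.420 and 0.366 against 0.0605 and 0.0349) were higher too. These genes were picked as high in the chosen cells, so their direction was set by the choice. Cd3e was about equal, with folds of 0.981 and 1.13. Ighd was at 0.192 and 0.178 against 0.0117 and 0.00414.

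In macrophages 101 and 448 cells had at least 2 Ighm UMIs, with median depths of 12037 and 21760 against 6718 and 7341. Ebf1 and Bank1, taken from a ranking made in the same way, had folds of 17.0 and 4.71 and of 5.73 and 3.77. Csf1r, the receptor that defines macrophages, had 1.35 and 1.6. Cells chosen for Ighm UMIs are deep cells, so levels per 10000 of Igkc and Igha, which fall with depth, are not compared.

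Variable genes of B cells were spread over many segments. Of 185 listed Ighv genes, 89 and 109 had a UMI in B cells, and of 160 Igkv genes 87 and 100. The Ighv UMIs behind these counts were 16110 and 43267, so the counts are not compared between the libraries. Ighv4-1 held 18.2% of Ighv UMIs in the library labelled Mir34a_F/F, whereas the leading Ighv gene of the other, Ighv3-6, held 7.54%. Whether a few cells carried these shares was not tested. The kappa genes Igkv1-117 and Igkv1-110 were the leading pair in both libraries, with 11.7% and 10.3% in the library labelled Mir34a_F/F and 7.11% and 7.66% in the other.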
